A study of Mus musculus with 10 samples.

Results

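The levels of 10 genes that control the G1 phase of the cell cycle were followed in mouse microglia, the resident macrophages of the brain. They were taken by name from the deposited count tables and are the D-type cyclins *Ccnd1*, *Ccnd2* and *Ccnd3*, their kinases *Cdk4* and *Cdk6*, the CDK inhibitors *Cdkn1a*, *Cdkn1b*, *Cdkn2c* and *Cdkn2d*, and the transcription factor *Myc*. They are 10 of the 18281 gene symbols in the tables. All 10 passed the filter on low counts that left 12155 genes for testing.

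D-type cyclins are made when growth factor signals reach a cell, and they bind CDK4 or CDK6 to form kinases that phosphorylate the retinoblastoma protein and release E2F factors, which start DNA replication. The inhibitors are of a pair of families. INK4 proteins, here p18 (*Cdkn2c*) and p19 (*Cdkn2d*), bind CDK4 and CDK6 alone, while CIP/KIP proteins, here p21 (*Cdkn1a*) and p27 (*Cdkn1b*), bind many cyclin and CDK complexes. *Myc* drives growth and ribosome production. Microglia rarely divide in the healthy adult brain and can re-enter the cycle after injury or in culture.

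Microglia of C57BL/6 mice were sorted by FACS as live, CD11b high and CD45 intermediate cells and sequenced as 10x Genomics 3' v2 single cell libraries. The adult group came directly from the brains of adult mice aged at least 10 weeks. The slice groups came from coronal brain slices of pups aged 1 to 4 days, kept on culture inserts for 1 day, 1 week or 3 weeks. The *in vitro* group came from mixed glial cultures of cortices of pups aged 2 days, from whose medium microglia were collected after 3 weeks. By the study's methods, human PDGF, a growth factor, was added to the slice medium at each medium change, and none is named for the mixed glial cultures, which also had a different serum mix. Growth factor, serum and culture type thus cannot be told apart between slices and *in vitro*. Each group had 2 libraries. Several slices could be pooled for a library, and the animals behind each library were not given. The p-values therefore measure the spread between libraries, which may be technical. The cultured cells were of neonatal and the adult cells of adult origin, so culture and age cannot be told apart against adult.

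The 10 libraries held 61 to 3799 kept cells and 385373 to 39689540 unique molecular identifiers (UMIs). The slice 1 week libraries were the smallest by far, with 148 and 61 cells. All 10 listed microglia markers were detected in every library, at a summed 39597 and 40620.1 CPM (UMI counts scaled to a common library total) in adult and 4037 to 18471 CPM in culture. Cells with 2% or more of their UMIs in a neutrophil marker list, here called neutrophil-list cells, were 13.1% and 10.8% of cells at slice 1 day, 16.2% and 1.64% at slice 1 week and 0 in the other 6 libraries. By their labels, 1 adult and 1 slice 3 weeks library (both replicate 1) belong to one study and the 8 remaining libraries to another. In all, 226 cell barcodes occurred in more than 1 library, at most 23 in any pair.

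Against adult, *Ccnd2* and *Cdkn1a* were called higher in all 4 cultures. UMIs of all cells in a library were added up and tested with edgeR, and a gene was called at a false discovery rate (FDR) under 0.05 and a fold change over 1.5. *In vitro*, 4 of the 10 genes were called higher than adult and 2 lower, beside 22.4% of all tested genes called higher and 28.5% lower. At slice 1 day 6 were higher and 0 lower, beside 24.9% and 25.4%. For the count of 0 lower, DESeq2 also gave 0, and the 6 higher genes were the only ones with an unadjusted p under 0.05. At slice 1 week 4 were higher and 2 lower, beside 15.0% and 13.6%. At slice 3 weeks 4 were higher and 0 lower, beside 18.0% and 17.5%, where DESeq2 gave 4 and 0 and 5 genes had an unadjusted p under 0.05. On the log2 scale the middle of the 10 fold changes stood at 0.29 *in vitro*, and in the slices at 0.98, 0.44 and 0.48 in order of time, and the median over all genes lay between -0.11 and -0.03. These 4 comparisons share the adult libraries. In summed counts, fewer cells with a transcript and less of it per cell cannot be told apart.

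**Figure D1:**
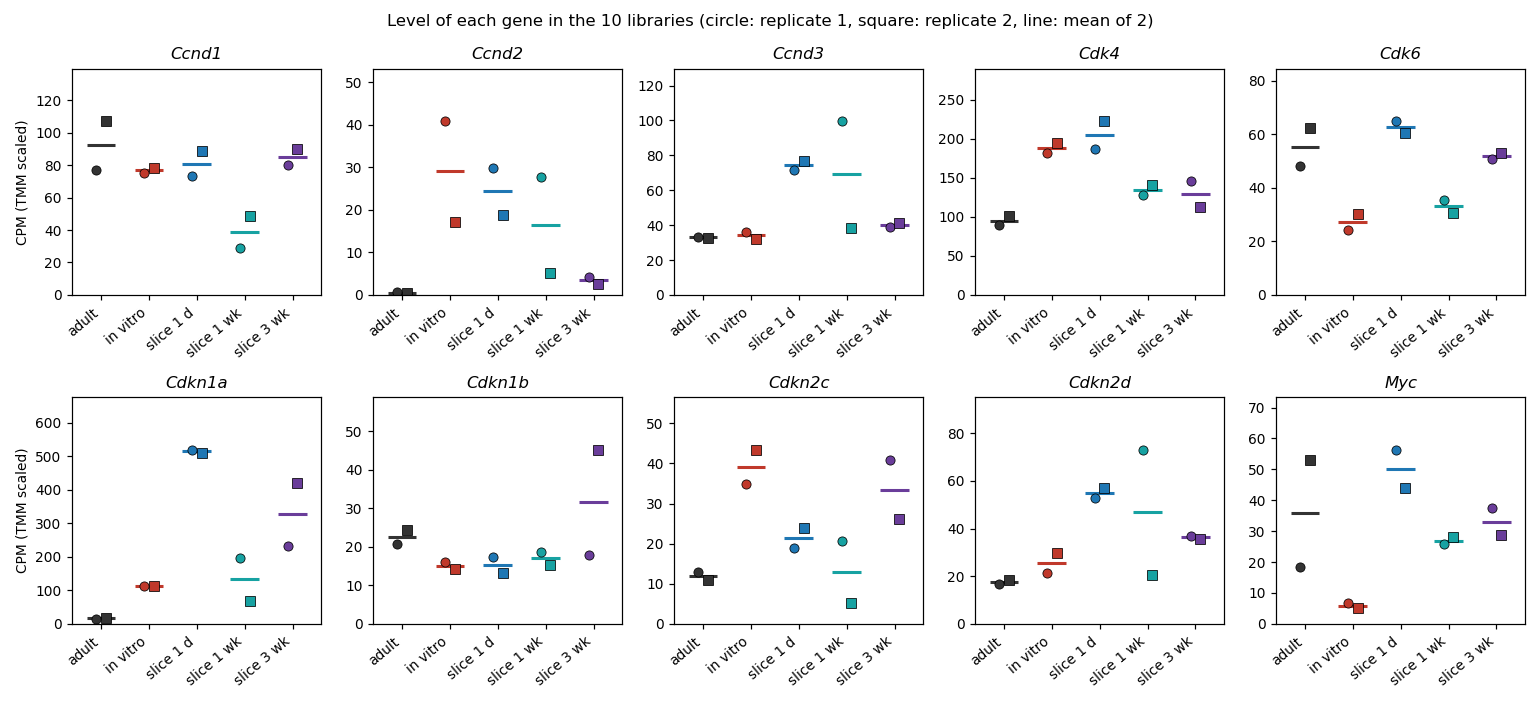
Level of each of the 10 genes in the 10 libraries, as CPM after TMM scaling, with 1 point per library (circle for replicate 1, square for replicate 2) and a line at the mean of 2. *Cdkn1a* rose from about 16 CPM in adult to over 500 CPM at slice 1 day, and *Ccnd2* was below 1 CPM in adult.

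The D cyclins differed most from each other in *Ccnd2* (chromosome 6, 127125162 to 127152188, GRCm38.p6), cyclin D2. It was at 0.586 and 0.386 CPM in the adult libraries, from 8 and 3 UMIs, with exact Poisson limits of 0.253 to 1.15 and 0.0797 to 1.13 CPM. It was at 41.0 and 17.2 CPM *in vitro* and at 29.9 and 18.9 CPM at slice 1 day. It stood at 27.7 and 5.12 CPM at slice 1 week, the latter from 2 UMIs, and at 4.27 and 2.66 CPM at slice 3 weeks. Every cultured library was above both adult libraries, and the slice 3 weeks libraries were the lowest of the cultured ones. The log2 fold change against adult was 5.81 *in vitro* (SE 0.65, edgeR adjusted p = 3.4e-05), 5.52 at slice 1 day (SE 0.67), 5.28 at slice 1 week (SE 0.88) and 2.66 at slice 3 weeks (SE 0.76, edgeR adjusted p = 0.018). As the ratio of summed counts, *Ccnd2* was 55.1-fold the adult level *in vitro* (exact 95% interval 30.7 to 111) and 6.00-fold at slice 3 weeks (3.20 to 12.5), intervals that cover counting error only. The *in vitro* value was 5.17 without *in vitro* replicate 1 and 6.42 without replicate 2. Without slice 1 week replicate 1 the 1 week value was 3.33 on the log2 scale and not called. At 3 weeks it was 2.47 to 3.11 without either adult library and 2.35 without slice 3 weeks replicate 1, in each case not called.

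*Ccnd1* (chromosome 7, 144929931 to 144939831), cyclin D1, was called against adult at 1 week and in none of the other 3 cultures. It was at 77.1 and 107 CPM in adult, 75.3 and 78.0 *in vitro*, 73.1 and 88.4 at slice 1 day and 80.2 and 89.6 at slice 3 weeks. Adult and slice 1 day overlapped each other and the other 2 groups, and both *in vitro* libraries lay just below both slice 3 weeks libraries. At slice 1 week it was at 28.7 and 48.6 CPM, below every other library, and fell by 1.36 on the log2 scale against adult (SE 0.26, edgeR adjusted p = 0.0033). That call rested on 29 and 19 UMIs and was lost without slice 1 week replicate 1, at -0.89. The fitted *Ccnd1* difference from adult was -0.26 *in vitro* (SE 0.20), -0.18 at 1 day (SE 0.20) and -0.11 at 3 weeks (SE 0.20).

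*Ccnd3* (chromosome 17, 47505051 to 47599689), cyclin D3, stood at 33.4 and 32.6 CPM in adult and at 36.1 and 32.3 CPM *in vitro*. It was at 71.8 and 76.7 CPM at slice 1 day, at 99.8 and 38.4 CPM at slice 1 week and at 38.8 and 41.1 CPM at slice 3 weeks. The 1 day libraries lay above all adult, *in vitro* and 3 weeks libraries. The log2 fold change against adult was 1.17 at 1 day (SE 0.24, edgeR adjusted p = 0.0020) and 1.20 at 1 week (SE 0.28, edgeR adjusted p = 0.0086), and was 0.05 *in vitro* (SE 0.23) and 0.28 at 3 weeks (SE 0.24). The neutrophil-list cells held far more of it than the other cells of the same libraries, at 274 against 65.0 CPM and 357 against 54.4 CPM at 1 day and 393 against 46.1 CPM in slice 1 week replicate 1. Without those cells the rise was 0.79 at 1 day, still called, and 0.37 at 1 week, not called. Without slice 1 week replicate 1 it was 0.25 and not called.

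The make-up of the D cyclin UMIs, which are 3' counts not scaled by length, changed with these levels. *Ccnd2* made up 0.527% and 0.275% of the D cyclin UMIs in adult, with exact binomial 95% intervals of 0.228 to 1.04% and 0.0568 to 0.803%. *In vitro* its share was 26.9% in replicate 1 and 13.5% in replicate 2. In the slices it was 17.1% and 10.3% on day 1, then 17.7% and 5.56% after 1 week and only 3.46% and 1.99% after 3 weeks. *Ccnd1* made up 69.4% and 76.5% in adult and 65.1% and 67.2% at slice 3 weeks, against 49.4% and 61.2% *in vitro*, 41.8% and 48.1% at 1 day and 18.4% and 52.8% at 1 week. *Ccnd3* made up 30.1% and 23.2% in adult, 23.7% and 25.3% *in vitro* and 31.5% and 30.8% at slice 3 weeks, and its share was higher at 1 day (41.1% and 41.7%) and at 1 week (63.9% and 41.7%). The 1 week shares rest on 158 and 36 D cyclin UMIs.

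**Figure D2:**
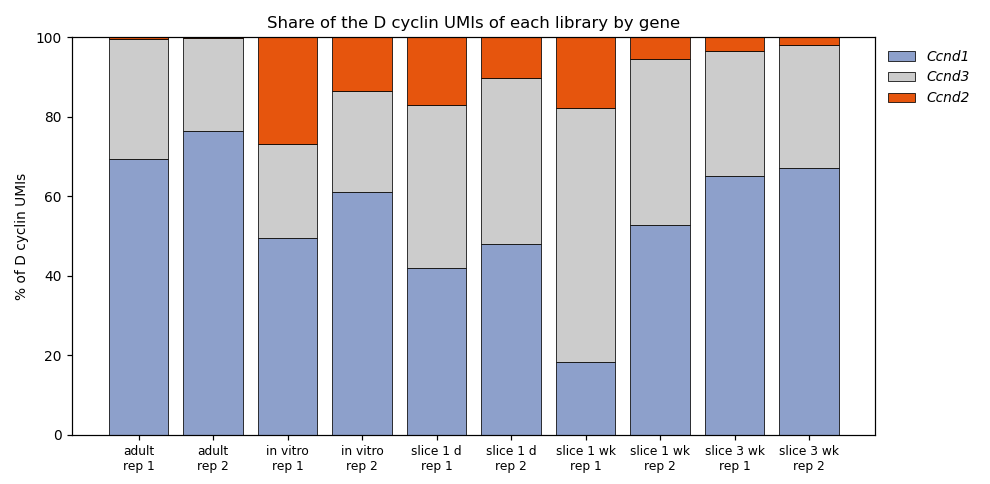
Share of the D cyclin UMIs of each library that came from *Ccnd1*, *Ccnd3* and *Ccnd2*, in percent, with 1 stacked bar per library. *Ccnd2* took up to 26.9% *in vitro* and under 1% in both adult libraries.

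Of the kinases, *Cdk4* (chromosome 10, 127063535 to 127067288) was higher in culture. It was at 89.5 and 101 CPM in adult, 182 and 195 *in vitro*, 187 and 223 at slice 1 day, 128 and 141 at slice 1 week and 146 and 113 at slice 3 weeks. Every cultured library lay above both adult libraries. The log2 fold change against adult was 0.98 *in vitro* (SE 0.16, edgeR adjusted p = 5.3e-04) and 1.11 at 1 day (SE 0.17, edgeR adjusted p = 3.0e-04). It was 0.49 at 1 week (SE 0.18, edgeR adjusted p = 0.063) and 0.44 at 3 weeks (SE 0.16, edgeR adjusted p = 0.054), neither called. *Cdk4* is a known target of Myc, which binds the E-box CACGTG, so its RefSeq promoter (GRCm38.p6, chr10:127063285-127063584, plus strand, 250 bases before to 50 after the start) is shown with CACGTG in capitals.
*Cdk4* promoter: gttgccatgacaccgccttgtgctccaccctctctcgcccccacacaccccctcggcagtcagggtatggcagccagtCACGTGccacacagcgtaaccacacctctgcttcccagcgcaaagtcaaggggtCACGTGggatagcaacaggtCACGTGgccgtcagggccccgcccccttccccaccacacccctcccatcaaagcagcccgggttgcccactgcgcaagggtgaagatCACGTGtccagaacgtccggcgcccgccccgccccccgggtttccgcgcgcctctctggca
The window held 4 matches to CACGTG, read the same on both strands. It was 1 of 8 promoters of the 32851 in the table with at least 4 (0.0244%), a limit equal to its own count. At least 1 match was held by 7.15%. Promoters were available for 7 of the 10 genes, with 10 windows in all, and of these *Cdk6* and the second *Cdkn2c* window held 1 match each. A match is a run of letters and not a measured binding site. *Myc* RNA was lowest *in vitro*, where *Cdk4* was 1.97-fold the adult level, and a link between these levels was not tested.

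*Cdk6* (chromosome 5, 3341004 to 3531008) was called lower than adult *in vitro* and at slice 1 week, and was called higher in no culture. It was at 48.0 and 62.5 CPM in adult, 65.0 and 60.5 at slice 1 day and 50.8 and 53.1 at slice 3 weeks, and the adult range overlapped both slice ranges, which did not overlap each other. It was at 24.3 and 30.2 CPM *in vitro* and at 35.6 and 30.7 CPM at slice 1 week, below all the other libraries. *Cdk6* fell by 1.01 on the log2 scale *in vitro* (SE 0.16, edgeR adjusted p = 3.6e-04) and by 0.70 at 1 week (SE 0.22, edgeR adjusted p = 0.034). The 1 week call was lost in 10 of the 21 alternative fits, among them DESeq2 (-0.64), and the change was -0.51 without adult replicate 2. The change was 0.18 at 1 day (SE 0.16) and -0.08 at 3 weeks (SE 0.16). *In vitro* the *Cdk6* level was thus 2.02-fold lower than in adult while that of *Cdk4* was higher.

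**Figure D3:**
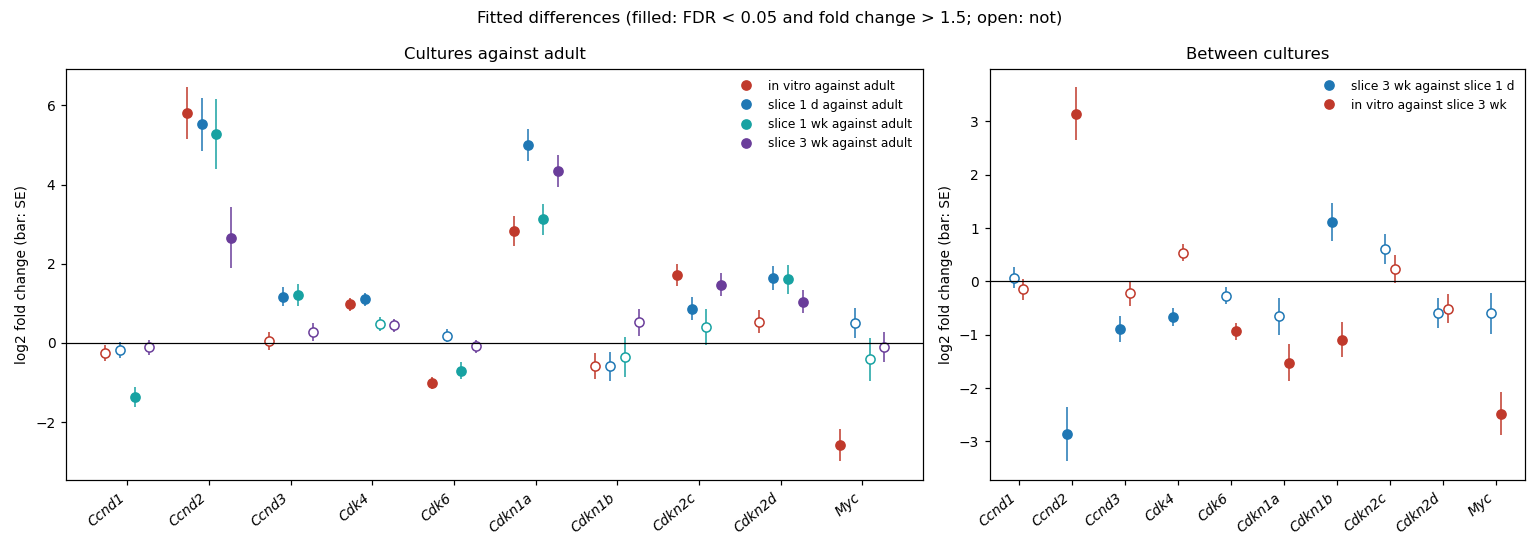
Fitted log2 fold change of each gene, with its SE as a bar, for the 4 cultures against adult (left) and for the comparisons between cultures (right). Filled points passed an FDR of 0.05 and a fold change of 1.5. The largest values were those of *Ccnd2* and *Cdkn1a*, and *Myc* *in vitro* was the lowest against adult at -2.58.

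*Cdkn1a* (chromosome 17, 29090979 to 29100722), the gene of p21 and a target of p53, rose in every culture. It was at 15.8 and 16.4 CPM in adult and at 113 and 114 CPM *in vitro*. It reached 519 and 510 CPM at slice 1 day, 196 and 69.1 CPM at slice 1 week and 233 and 419 CPM at slice 3 weeks. No cultured library came near the adult libraries, and the order of the means was adult, *in vitro*, 1 week, 3 weeks and 1 day, with overlap only between *in vitro* and 1 week. The log2 fold change against adult was 2.82 *in vitro* (SE 0.38, edgeR adjusted p = 1.2e-04), 5.0 at 1 day (SE 0.41, edgeR adjusted p = 7.0e-06), 3.12 at 1 week (SE 0.40) and 4.34 at 3 weeks (SE 0.40), or 7.07-fold, 32.0-fold, 8.70-fold and 20.3-fold. The call held in each of these comparisons under all 21 alternative fits, but without slice 1 week replicate 1 the 1 week value was 2.13. In the neutrophil-list cells it was lower than in the other cells, at 117 against 562 CPM and 111 against 553 CPM at 1 day. *Cdkn1a* made up 43.3% and 40.1% of the UMIs of the CIP/KIP pair in adult and 81.8% to 97.5% in culture.

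RefSeq gives *Cdkn1a* 2 promoter windows, shown because p53 is the best known activator of the gene. Capitals mark ACATGTC or its reverse complement, the core of a p53 half-site. The windows are chr17:29090729-29091028 and chr17:29093519-29093818 (GRCm38.p6, plus strand).
*Cdkn1a* promoter 1: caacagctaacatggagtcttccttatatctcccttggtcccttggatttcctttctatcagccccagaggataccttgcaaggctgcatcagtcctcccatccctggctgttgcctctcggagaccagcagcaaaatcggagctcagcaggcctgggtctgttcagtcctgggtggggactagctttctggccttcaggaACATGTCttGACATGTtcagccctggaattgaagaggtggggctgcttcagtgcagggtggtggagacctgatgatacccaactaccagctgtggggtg
*Cdkn1a* promoter 2: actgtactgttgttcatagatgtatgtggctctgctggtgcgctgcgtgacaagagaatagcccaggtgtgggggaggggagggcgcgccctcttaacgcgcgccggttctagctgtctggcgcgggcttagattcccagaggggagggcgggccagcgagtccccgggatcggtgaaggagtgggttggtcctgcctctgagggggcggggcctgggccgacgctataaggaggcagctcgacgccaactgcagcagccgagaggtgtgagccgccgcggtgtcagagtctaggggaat
The first window held 2 matches, 49 and 40 bases before its start, as did 0.283% of all promoters (2.01% held at least 1). The second held 0. This motif was chosen after the sequence was seen, and the 3' reads do not tell which start was used.

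*Cdkn1b* (chromosome 6, 134920401 to 134925525), the gene of p27, was at 20.7 and 24.5 CPM in adult, 16.0 and 14.1 *in vitro*, 17.3 and 13.2 at slice 1 day and 18.8 and 15.4 at slice 1 week. These 6 cultured libraries lay below both adult libraries, but the differences of -0.58, -0.59 and -0.35 (SE 0.33, 0.36 and 0.51) were not called. With the study label as a covariate the *in vitro* value was -1.0 and the 1 day value -1.02, both called. At slice 3 weeks the libraries stood apart, at 18.0 and 45.2 CPM, and the difference of 0.52 from adult (SE 0.33) was not called. These libraries carry different study labels. Within a label slice 3 weeks was below adult in one (18.0 against 20.7 CPM) and above it in the other (45.2 against 24.5 CPM). *Cdkn1b* was called 1.11 higher at slice 3 weeks than at 1 day (SE 0.35, edgeR adjusted p = 0.038) and lower *in vitro* than at slice 3 weeks, at -1.10 (SE 0.33, edgeR adjusted p = 0.024). Without slice 3 weeks replicate 2 these were 0.29 and -0.19, neither called. The first call was also lost without any one of the adult, *in vitro*, 1 day or 1 week libraries, at 0.90 to 1.28, with cells thinned to 1500 UMIs (0.98) and among cells under 3 cycle UMIs (0.96). The second call was also lost without *in vitro* replicate 1 (-1.10) or 2 (-0.92).

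Both INK4 genes were called higher in some cultures. *Cdkn2d* (chromosome 9, 21288459 to 21291421), the gene of p19, was at 16.8 and 18.5 CPM in adult and at 21.3 and 29.8 CPM *in vitro*. It was at 52.7 and 56.9 CPM at slice 1 day, 73.1 and 20.5 at slice 1 week and 37.0 and 35.8 at slice 3 weeks. Every cultured library was above both adult libraries. The log2 fold change against adult was 1.64 at 1 day (SE 0.30, edgeR adjusted p = 9.8e-04), 1.61 at 1 week (SE 0.36, edgeR adjusted p = 0.0073) and 1.04 at 3 weeks (SE 0.29, edgeR adjusted p = 0.016), and 0.53 *in vitro*, not called (SE 0.29). Neutrophil-list cells held *Cdkn2d* at 390 against 38.4 CPM and 271 against 39.8 CPM at 1 day and at 217 against 45.0 CPM in slice 1 week replicate 1. Without those cells the rises were 1.10 and 1.01, both called. Without slice 1 week replicate 1 the 1 week rise was 0.24, and without adult replicate 1 or 2 the 3 weeks rise was 1.03 or 1.11, none of them called.

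*Cdkn2c* (chromosome 4, 109660876 to 109666756), the gene of p18, was at 12.8 and 10.9 CPM in adult, 34.8 and 43.4 *in vitro*, 18.9 and 24.0 at slice 1 day, 20.8 and 5.12 at slice 1 week and 40.8 and 26.2 at slice 3 weeks. The *in vitro*, 1 day and 3 weeks libraries lay above adult, and the 1 week libraries fell on either side of it. The log2 fold change was 1.71 *in vitro* (SE 0.28, edgeR adjusted p = 4.5e-04), 0.86 at 1 day (SE 0.29, edgeR adjusted p = 0.029), 0.40 at 1 week (SE 0.45) and 1.47 at 3 weeks (SE 0.28, edgeR adjusted p = 0.0023). The 1 day call was lost without adult replicate 1 (1.03), adult replicate 2 (0.76) or slice 1 day replicate 2 (0.72). *Cdkn2c* is a known E2F target, so the first of its 2 RefSeq windows (chr4:109666707-109667006, GRCm38.p6, minus strand) is shown, with an E2F core in capitals.
*Cdkn2c* promoter 1: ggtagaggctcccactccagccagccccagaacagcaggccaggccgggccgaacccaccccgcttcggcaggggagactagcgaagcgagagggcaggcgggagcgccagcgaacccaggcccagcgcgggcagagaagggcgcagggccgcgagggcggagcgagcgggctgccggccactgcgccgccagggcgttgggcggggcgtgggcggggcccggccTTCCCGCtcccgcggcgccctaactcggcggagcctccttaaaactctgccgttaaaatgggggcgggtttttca
The cores searched on both strands were TTCGCGC, the form TTGGCGC, the form TTCCCGC and also TTGCCGC, which 9.57% of all promoters hold, and this window was the only one of the 10 with a match, TTCCCGC 25 bases before the start. These 7 letters were searched after the full 8 letters, with a further T in front, gave no match in the 10 windows (2.26% of all promoters).

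*Myc* (chromosome 15, 61985341 to 61990361) was lowest *in vitro*. It was at 18.5 and 53.1 CPM in adult, a 2.86-fold difference between replicates. It was at 6.78 and 5.0 CPM *in vitro*, below every other library. It was at 56.4 and 43.9 CPM at slice 1 day, 25.7 and 28.1 after 1 week and 37.5 and 28.6 after 3 weeks, and of these only slice 1 day replicate 1 was outside the range of the adult pair. *Myc* fell by 2.58 on the log2 scale *in vitro* (SE 0.40, edgeR adjusted p = 3.3e-04), or 6.00-fold. Without adult replicate 1 the value was -3.08 and without adult replicate 2 it was -1.66, called in both cases. The slice differences of 0.50, -0.41 and -0.10 (SE 0.38, 0.54 and 0.38) were not called. The adult replicates carry different study labels, and within a label slice 3 weeks was above adult in one (37.5 against 18.5 CPM) and below it in the other (28.6 against 53.1 CPM). Without adult replicate 2 the differences were 1.43 at 1 day and 0.82 at 3 weeks, both called, and without adult replicate 1 they were -0.049 and -0.64, neither called.

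Between cultures the question was how the slices changed with time and how both 3 weeks cultures differed. From slice 1 day to 3 weeks, 1 of the 10 genes was called higher and 3 lower, beside 13.9% and 12.8% of all genes. *Ccnd2* fell by 2.86 (SE 0.51, edgeR adjusted p = 0.0026), *Ccnd3* by 0.89 (SE 0.24, edgeR adjusted p = 0.017) and *Cdk4* by 0.67 (SE 0.16, edgeR adjusted p = 0.013), and *Cdkn1b* was the gene called higher. *Cdkn1a* at -0.65 (SE 0.35) and *Myc* at -0.60 (SE 0.38) were not called, nor were *Ccnd1* at 0.069 (SE 0.20), *Cdk6* at -0.27 (SE 0.16), *Cdkn2c* at 0.61 (SE 0.28) and *Cdkn2d* at -0.59 (SE 0.28). The *Ccnd3* value was -0.51 without the neutrophil-list cells, not called, and was also not called without 1 day replicate 1 (-0.94) or replicate 2 (-0.84). The *Cdk4* call was lost without 1 day replicate 2 (-0.53) or 3 weeks replicate 2 (-0.48), among cells under 3 cycle UMIs (-0.53) and with cells thinned to 1500 UMIs (-0.55).

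*In vitro* against slice 3 weeks, 1 gene was called higher and 4 lower, beside 13.3% and 20.0% of all genes. *Ccnd2* was 3.14 higher on the log2 scale (SE 0.49, edgeR adjusted p = 7.9e-04), or 8.84-fold, and 2.45 without *in vitro* replicate 1. *Myc* was lower at -2.48 (SE 0.40, edgeR adjusted p = 9.3e-04), *Cdkn1a* at -1.52 (SE 0.35, edgeR adjusted p = 0.0068) and *Cdk6* at -0.93 (SE 0.16, edgeR adjusted p = 0.0013), together with *Cdkn1b*. *Cdk4* was 0.54 higher (SE 0.16, edgeR adjusted p = 0.025), below the fold change of 1.5. *Ccnd1*, *Ccnd3*, *Cdkn2c* and *Cdkn2d* were not called, at -0.15, -0.23, 0.24 and -0.51. The *Cdkn1a* call was lost without *in vitro* replicate 2 (-1.45) and without slice 3 weeks replicate 2 (-0.97).

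To set the 10 genes beside cell division, UMIs of 21 S phase and 33 mitosis genes were counted per cell after thinning each cell to 1500 UMIs. None of the 10 genes is among these 54. Cells with at least 3 such UMIs were 1.16% and 3.22% of the adult libraries, 11.3% and 17.2% of *in vitro*, 17.3% and 26.8% of slice 1 day, 13.5% and 21.4% of 1 week and 21.4% and 9.44% of 3 weeks. Every cultured library was above both adult libraries, and the cultures overlapped with each other. These cells are a range of a score and not a cell type, and 3 to 253 cells per library sat 1 UMI below the limit. Cells under 1500 UMIs were left out, 278 and 856 of them in adult and 0 to 7 in each cultured library. *Mki67*, a mitosis gene, was at 1.98 and 1.67 CPM in adult and 9.44 to 40.2 CPM in culture.

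*Cdkn2c* was higher in the cells with at least 3 cycle UMIs in the 9 libraries with its UMIs in both classes, by 1.83 to 3.41 on log2(CPM + 1). In slice 1 week replicate 2 it had 2 UMIs in these cells and 0 in the others, too few for a direction. In adult it was at 123 CPM in these cells in replicate 1 and at 55.7 CPM in replicate 2, or 9.80-fold and 4.93-fold the other cells, from 23 and 12 UMIs. Of these, 23 and 9 lay in the 19 and 25 cells with at least 4 cycle UMIs. At slice 3 weeks it was at 133 CPM in these cells in both libraries, or 10.5-fold and 10.7-fold. *Cdkn2d* was higher in 9 of 10 libraries, with a median log2 ratio of 1.69, and the exception was slice 1 week replicate 1. In slice 1 week replicate 2 that rested on 2 UMIs against 6. At slice 1 day *Cdkn2d* was 1.13-fold and 1.53-fold the other cells. Neutrophil-list cells, in which *Cdkn2d* was high, were not taken out of either class, and their part in these ratios was not tested. *Cdk4* was higher in 9 of 10 (median 0.54), while *Ccnd2* had too few UMIs in adult and at slice 1 week for a direction, with 0 in these cells in both adult libraries and 1 in each slice 1 week library. At slice 1 day *Ccnd2* was at 13.1 and 4.28 CPM in these cells, 0.365-fold and 0.164-fold the other cells. *In vitro* it was 0.822-fold and 0.892-fold. At slice 3 weeks it was 0.216-fold and 0.997-fold, from 2 and 6 UMIs in these cells.

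*Cdkn1a* differed in direction between groups. In adult it was at 209 and 186 CPM in the cells with at least 3 cycle UMIs, 14.2-fold and 14.8-fold the other cells, from 39 and 40 UMIs. Of these, 39 and 34 lay in the 19 and 25 cells with at least 4 cycle UMIs, where the level was 362 and 462 CPM. At slice 1 day it was at 175 and 313 CPM in these cells, 0.274-fold and 0.510-fold the other cells. *In vitro* and at 3 weeks it was at 1.21-fold to 1.90-fold the other cells. At slice 1 week it was at 0.943-fold and 0.631-fold, from 26 and 3 UMIs in these cells. The adult classes held 41 and 86 cells. *Myc* was higher in these cells in 8 of 10 libraries, with a median log2 ratio of 0.12 and a range of -1.41 to 1.05, of which the lowest, slice 1 week replicate 2, rests on 1 UMI in these cells.

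When only cells under 3 cycle UMIs were fitted, the *Cdkn2c* difference from adult was -0.38 at slice 1 day, 0.07 at 1 week and 0.35 at 3 weeks, none called, and 1.12 *in vitro*, still called. The *Cdkn1a* rise was 5.68, 3.54, 4.76 and 3.18 in the same order and was called in each. *Ccnd2* at 5.74, 4.42, 2.72 and 5.84 and *Myc* *in vitro* at -2.41 were also called. Cells under 1500 UMIs were also left out of this fit. The *Cdkn2c* calls at slice 1 day and 3 weeks were lost in it, and the change between the fits was not tested.

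**Figure D4:**
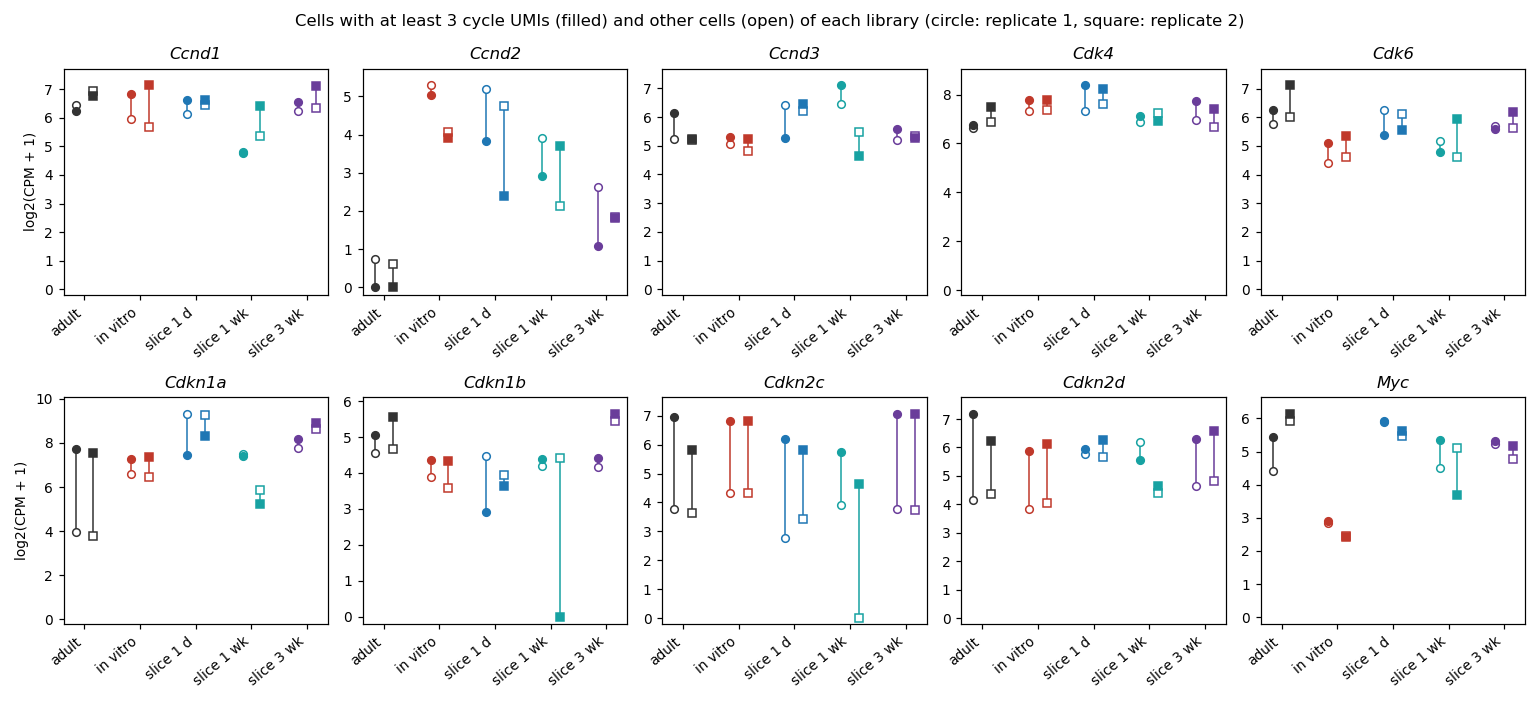
Level of each gene on log2(CPM + 1) in cells with at least 3 cycle UMIs (filled) and in the other cells (open) of each library, joined by a line. *Cdkn2c* was higher in the filled points in every library with its UMIs in both classes, and *Cdkn1a* was higher in them in adult and lower at slice 1 day.

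The sort took CD11b high cells, which include neutrophils, and its CD45 intermediate gate would remove cells of high CD45 such as neutrophils and monocytes. Some of the 10 genes were high in the neutrophil-list cells. In the 3 libraries with over 20 neutrophil-list cells, *Ccnd3* was 4.21-fold, 6.57-fold and 8.52-fold the level of the other cells and *Cdkn2d* 10.2-fold, 6.81-fold and 4.81-fold. *Ccnd1*, *Cdk4*, *Cdk6* and *Myc* were lower in them, *Ccnd1* at 5.83, 16.1 and 6.77 CPM. *Ccnd2* was 1.33-fold, 1.21-fold and 0.234-fold. *Cdkn1b* was 4.99-fold and 2.59-fold at 1 day, from 13 and 23 UMIs in these cells, and 0.351-fold from 1 UMI at 1 week. Without these cells its difference from adult at 1 day was -0.81, not called, and from 1 day to 3 weeks it was 1.33, called. All 10 neutrophil markers were detected in these 3 libraries at a summed 7762, 22520.3 and 40352 CPM, against 955 CPM in slice 1 week replicate 2 and 1.18 to 8.40 CPM in the other 6. Leaving these cells out was an alternative chosen after seeing the data. Over all comparisons 2 of the 60 calls on the 10 genes changed without these cells, both for *Ccnd3*. The monocyte list was at 154 to 855 CPM in the same 3 libraries and at 0 to 7.18 CPM in the others, and border macrophage markers were at 2270.0 and 2132 CPM *in vitro*, against 5.74 to 316 CPM elsewhere. No cells were assigned to a type by the monocyte or border macrophage lists. UMIs of all lists other than microglia and erythroid were also counted together per cell. At least 2 were found in 98.5% and 98.9% of *in vitro* cells and in 13.4% to 100% of cells in the other libraries. The part of cells with these markers in the results was not tested.

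**Figure D5:**
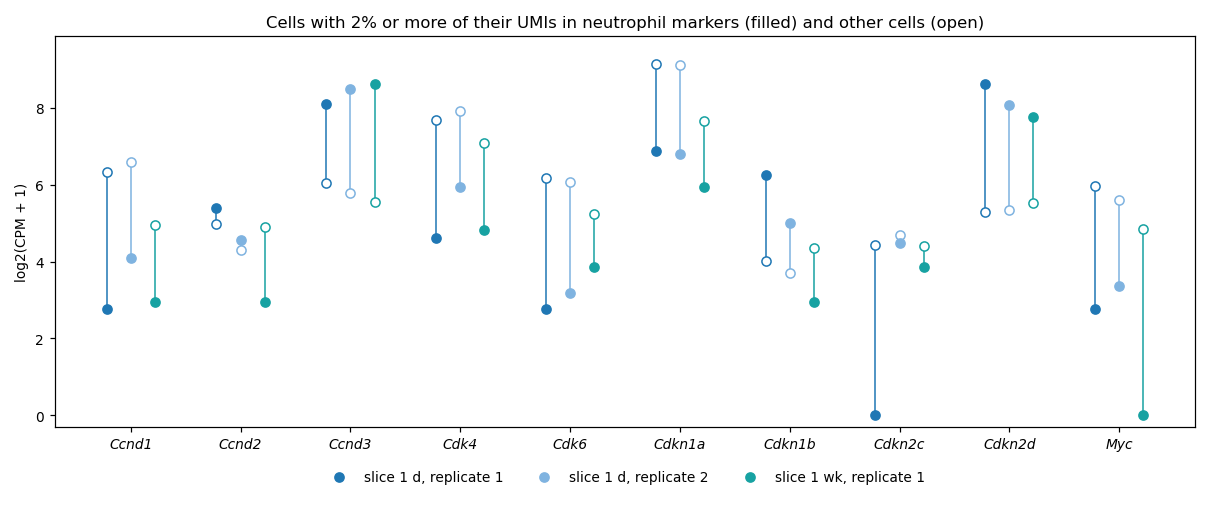
Level of each gene on log2(CPM + 1) in neutrophil-list cells (filled) and in the other cells (open) of the 3 libraries with over 20 such cells. *Ccnd3* and *Cdkn2d* were higher in the filled points in all 3 libraries, and *Ccnd1*, *Cdk4*, *Cdk6*, *Cdkn1a* and *Myc* were lower.

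CPM values are relative to the RNA of a library, and cultured cells held more UMIs. Scaled by the number of cells, the median gene was 2.04 higher on the log2 scale *in vitro* than in adult, 1.49 at slice 1 day, 1.10 at 1 week and 1.05 at 3 weeks, and called genes were 94.5%, 95.1%, 97.0% and 95.3% higher, against 44.0%, 49.5%, 52.5% and 50.6% in CPM. On that scale *Cdk6* *in vitro* was 1.20 and *Ccnd1* 1.97 above adult, which were below the median gene, and *Myc* *in vitro* was -0.26. UMIs per cell include the yield of each run, and RNA per cell and yield cannot be told apart here.

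In the wider pathway, mitosis genes were called higher in all 4 cultures, and S phase genes in 3 of them beyond the share of all genes. The counts of this and the other lists stand beside 22.4% of all genes called higher and 28.5% lower *in vitro*, 24.9% and 25.4% at 1 day, 15.0% and 13.6% after 1 week, and 18.0% and 17.5% after 3 weeks. All 33 mitosis genes were called higher *in vitro*, at 1 day and at 3 weeks and 21 at 1 week, and of 21 S phase genes 14, 19, 17 and 3 were, with 0 lower in either list. The 3 S phase genes at 1 week were near the share of all genes called higher there. Of 19 tested genes among Rb, E2F and their G1/S partners, 6, 10, 9 and 3 were higher *in vitro*, at 1 day, at 3 weeks and at 1 week, and 1, 2, 1 and 0 lower. The E2F factor *E2f1* was at 1.84 CPM in adult and 31.3 *in vitro* (log2 fold change 4.09) and cyclin A2 (*Ccna2*) rose by 4.26. Of the 3 other CDK inhibitors *Cdkn2a* was called higher *in vitro* (2.79) and at 3 weeks (1.73). *Cdkn1c*, the gene of p57, was named after its values were seen and was called lower in all 4 cultures, from 24.8 CPM in adult to 0.917 CPM *in vitro* (log2 fold change -4.75), 2.84 CPM at 1 day (-3.29), 1.98 CPM at 1 week (-3.14) and 1.32 CPM at 3 weeks (-4.06). *Cdkn2b* was called in none of these 4 and had a mean under 3 CPM in every group. *E2f1* was also called at 1 day (3.96), 1 week (3.86) and 3 weeks (4.24).

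Of 19 tested genes of the p53 pathway, 11 were called higher and 3 lower at slice 1 day, 7 and 5 *in vitro*, 5 and 2 after 1 week, and 8 and 3 after 3 weeks. In no culture was the share called lower above that of all genes. The kinase gene *Plk2* rose by 8.02 at 1 day (0.404 to 100 CPM) and 5.98 *in vitro*, and *Phlda3* by 5.92 and 5.15, while the antiproliferative *Btg2* fell by 3.31 *in vitro* and was at 296 CPM in adult. From 1 day to 3 weeks 1 rose and 6 fell, beside 13.9% of all genes called higher and 12.8% lower, among them *Mdm2*, the ligase that degrades p53, by 1.19. The median of the list at 1 day was 1.07, beside -0.06 over all genes.

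Genes listed as Myc targets were highest at slice 1 day. Of 25, 23 were called higher and 0 lower there, with a median of 1.34, and 20 fell and 0 rose from 1 day to 3 weeks, beside 12.8% and 13.9% of all genes. *Ldha*, a glycolysis enzyme, was at 1819.9 CPM at 1 day and 193 CPM in adult, and *Npm1*, a nucleolar protein, at 956 and 205 CPM. *In vitro*, where *Myc* was lowest, 8 were higher and 3 lower, with a median of 0.22. At 1 week 7 were higher and 2 lower, and at 3 weeks 9 and 0. Among the Myc network genes *Max*, the partner of Myc, was 0.71 higher *in vitro*, and 1 of 11 was higher and 3 lower.

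Of 19 genes of FoxO, DREAM and quiescence, 3, 3, 2 and 2 were called higher and 5, 9, 2 and 7 lower *in vitro*, at 1 day, 1 week and 3 weeks, and *in vitro* and at 1 week neither count was above the share of all genes. The cyclin G2 gene *Ccng2* fell by 2.64 *in vitro*, and *Klf2* was 2.66 higher. Of 15 genes for the activation of CDK4 and CDK6 and the turnover of D cyclins and Myc, 2, 2, 0 and 0 were higher and 1, 1, 1 and 2 lower. *Cul1*, the scaffold of SCF ligases, was the lower one *in vitro* (-1.17) and at 1 day (-0.99). Of 14 immediate early genes, which can rise while cells are isolated, 7 were called higher and 1 lower at 1 day (median 2.54), 4 and 4 *in vitro*, 3 and 2 at 1 week and 4 and 2 at 3 weeks. Summed, with *Jun* at 327 CPM in adult, they were at 1713 and 1295 CPM at 1 day, 1123 and 1249.9 CPM in adult, 754 and 668 CPM at 1 week, 977 and 969.9 CPM at 3 weeks and 587 and 518 CPM *in vitro*. *Atf3* of that list was at 158 CPM at 1 day and 12.4 CPM in adult.

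Over the 10 libraries, the genes most alike to each of the 10 in log2 CPM among 3911 well expressed genes were given by Pearson's r, as a description across libraries that share groups and depth. For *Cdkn1a* they were *Mmp12* (r = 0.99), *Atf3* (0.99) and *Adssl1* (0.98), and for *Myc* *Gadd45g* (0.96), *Socs3* (0.95) and *Srsf10* (0.94). For *Ccnd3* they were *Wfdc21*, *Stfa3* and *Lcn2* (0.96 to 0.97), genes known from neutrophils. For *Ccnd2* they were *Taldo1* (0.99), *Msrb1* (0.97) and *Carhsp1* (0.97), and for *Cdk4* *Ndufa12*, *Gipc1* and *Acp1* (0.98 to 0.99). For *Cdkn2c* they were *Reep4* (0.95), *Mocs2* (0.93) and *Cyb5r1* (0.91), and for *Cdkn2d* *Trim35* (0.97), *Slpi* (0.95) and *Higd1a* (0.93). For *Ccnd1*, *Cdk6* and *Cdkn1b* the first were *Nsrp1* (0.92), *Otud1* (0.97) and *Srrm2* (0.93).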

How the data were processed

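The deposited files hold UMI counts per gene and cell, which the authors made from 10x Genomics reads (Cell Ranger 1.3.0 and mm10, per the submitters' processing notes), 1 table per library. A gene missing from a table was set to 0, and 14 symbols listed more than once were summed. Of 19637 barcodes, 19059 with at most 5% mitochondrial UMIs, at least 400 genes and at most 30000 UMIs were kept. No doublet caller was run. Counts were summed per library and fitted with edgeR 4.0.16 (quasi-likelihood, TMM, filterByExpr with a minimum count of 10) in 1 model of 5 groups of 2 libraries, with Benjamini-Hochberg adjustment over 12155 genes. Levels are CPM after TMM scaling, and class and marker levels are plain CPM. Intervals cover counting error only.

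The 10 genes and all lists were chosen with earlier results of these data known. All 10 genes are named in every comparison. In each list the named genes are from the up to 4 with the largest change among called genes, and for each of the 10 the 3 genes of highest correlation. The alternatives were DESeq2 1.42.0, other scalings, filters and cell sets, thinning, a study label covariate, a replicate block and leaving out each library. On simulated counts for *in vitro* against adult (11703 genes), 66 of 100 genes changed by 1 on the log2 scale and 100 of 100 changed by 2 were called, with 12 false calls. The changed genes were drawn from those of higher mean level, and all genes had a common dispersion. These figures therefore do not cover genes of low counts or the small slice 1 week libraries. The replicate numbers were checked for pairing and did not pair the libraries. Promoters are from RefSeq (GRCm38.p6, 250 bases before to 50 after each start).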

Additional observations from a re-analysis of the deposited data

Results flagged for a closer look

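Each of the following differences in effect against adult was tested by the contrast between both cultures in the same edgeR fit and was called. *In vitro* and slice 3 weeks differed in *Ccnd2* by 3.14 on the log2 scale (5.81 and 2.66 against adult) and in *Cdk6* by -0.93 (-1.01 and -0.08). They differed in *Cdkn1a* by -1.52 (2.82 and 4.34), in *Cdkn1b* by -1.10 (-0.58 and 0.52) and in *Myc* by -2.48 (-2.58 and -0.10). Slice 3 weeks and slice 1 day differed in *Ccnd2* by -2.86 (2.66 and 5.52), in *Ccnd3* by -0.89 (0.28 and 1.17), in *Cdk4* by -0.67 (0.44 and 1.11) and in *Cdkn1b* by 1.11 (0.52 and -0.59). Several of these calls rest on 1 library. Without slice 3 weeks replicate 2, the values between *in vitro* and slice 3 weeks were -0.97 for *Cdkn1a* and -0.19 for *Cdkn1b*, and those between slice 3 weeks and 1 day were 0.29 for *Cdkn1b* and -0.48 for *Cdk4*, none called. Without *in vitro* replicate 1 the *Ccnd2* value against slice 3 weeks was 2.45, still called. The *Ccnd3* call was lost without either 1 day library, at -0.94 and -0.84. Without the neutrophil-list cells the *Ccnd3* value was -0.51, not called.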

How the results depend on the processing

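Over 60 gene and comparison pairs and 21 alternatives, 1130 of 1260 values kept their direction and side of the threshold, 50 lost the call, 43 gained it and 37 changed sign. UMIs per cell moved most. It gave 10 called genes at 1 day and 10 at 3 weeks against adult, where the main values were 6 and 4, and list calls of 171 *in vitro*, 114 at 1 week and 106 *in vitro* against 3 weeks (102, 56 and 53). Over all genes it called 10341, 5511, 7136 and 7082 *in vitro*, at 1 week, at 3 weeks and for *in vitro* against 3 weeks, where TMM-scaled CPM gave 2720 higher and 3463 lower, 1822 and 1651, 2182 and 2128, and 1616 and 2435. It changed the sign of *Ccnd1* (1.97), *Cdk6* (1.20) and *Cdkn1b* (1.62) *in vitro*, *Ccnd1* (1.43) and *Cdkn1b* (0.98) at 1 day, *Cdk6* (0.53), *Cdkn1b* (0.87) and *Myc* (0.95) at 1 week, *Ccnd1* (1.03), *Cdk6* (1.06) and *Myc* (1.17) at 3 weeks, *Ccnd1* between 3 weeks and 1 day (-0.40), and *Ccnd1* (0.93), *Ccnd3* (0.85), *Cdk6* (0.15), *Cdkn1b* (0.041) and *Cdkn2d* (0.57) *in vitro* against 3 weeks, a scale on which most genes were higher. With all barcodes *Ccnd1* was 0.0049 *in vitro* and 0.080 against 3 weeks. With library size alone *Ccnd3* was -0.25 *in vitro* and *Ccnd1* -0.0095 between 3 weeks and 1 day. With thinned cells *Cdkn2c* was -0.58 at 1 week, *Cdk6* 0.038 at 3 weeks and list calls at 1 week 34. Among cells under 3 cycle UMIs *Cdkn2c* was -0.38 at 1 day and *Cdk6* 0.078 at 3 weeks, and with the study label *Myc* was 0.022 at 3 weeks. The cause was not tested.

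Without 1 library in turn, called genes numbered 6 to 7 *in vitro*, 5 to 7 at 1 day, 1 to 6 at 1 week (1 without slice 1 week replicate 1), 2 to 5 at 3 weeks (2 without adult replicate 1), 1 to 4 between 3 weeks and 1 day (2 without 1 day replicate 1, 1 without 1 day replicate 2) and 3 to 6 *in vitro* against 3 weeks (3 without *in vitro* replicate 2 or slice 3 weeks replicate 2). *Ccnd1* ranged from -0.36 to 0.072 at 1 day, -0.28 to 0.14 at 3 weeks and -0.061 to 0.22 between both, *Myc* from -0.049 to 1.43 at 1 day, -0.96 to 0.51 at 1 week and -0.64 to 0.82 at 3 weeks, *Cdkn2c* from -1.19 to 0.76 at 1 week, *Cdk6* from -0.21 to 0.11 and *Cdkn1b* from -0.26 to 1.01 at 3 weeks. A lone library is taken to vary like the other groups. The replicate block changed no call on the 10 genes (6, 6, 6, 4, 4 and 5 called, as without it), and same-numbered libraries correlated at -0.112 to 0.094. The mean share of cycle cells was 8.08% in adult, 23.4% *in vitro*, 34.2% at 1 day and 24.7% at 1 week with at least 2 cycle UMIs and 0.738% in adult with at least 4. At 3000 UMIs it was 10.3%, 23.9%, 40.5%, 33.1% and 26.4% in adult, *in vitro* and the slices in order of time, and 11.5% at 1 week at 1000 UMIs. Leaving out every cell with 2 or more UMIs of another cell type was not run, since it removes all cells of some libraries. With 2 libraries a group and 61 to 148 cells at slice 1 week, small differences there may have been missed, and the detection limit was not measured.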
